A study of Mus musculus with 9 samples.

Results

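Chemokine transcripts were followed in J774A.1, an established mouse macrophage cell line, across 3 groups of 3 RNA-seq libraries. The members were the 10 rows of the deposited expression table with the gene symbols Ccl2, Ccl7, Ccl12, Ccl3, Ccl4, Ccl6, Ccl9, Ccl24, Cxcl2 and Cxcl16, of 26157 genes in all. Q11 cells were given the compound Q11, which the study title calls a CYP2E1 inhibitor (CYP2E1 is a cytochrome P450 enzyme), at the same time as the cytokines IL-4 and IL-13. M2 cells were given both cytokines at 10 ng/mL without Q11, and control cells were grown in normal culture. The sources used here give neither the dose of Q11 nor the length of treatment, and none of the 3 groups received Q11 without the cytokines. All libraries come from this 1 cell line, and the labels do not say whether the libraries of a group are separate cultures, so p-values measure only the spread between these samples.

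Chemokines are small secreted proteins that guide the movement of white blood cells through G protein-coupled receptors, and macrophages are a main source of them in inflamed tissue. CC and CXC chemokines are named for the spacing of their first conserved cysteines, and each draws its own set of cells, such as monocytes, neutrophils or eosinophils. Macrophages given IL-4 and IL-13 are known to change which chemokines they make, with Ccl17, Ccl22 and Ccl24 often used as signs of that state.

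Levels were deposited as TPM, a unit of transcript abundance scaled by gene length and library size, so that levels of different genes can be set side by side. Whole reads could be recovered from the TPM, and they came to 15815847 to 17095787 reads in 8 libraries and 32193523 in Q11 replicate 2. In only 11 of the 19252 genes with a read in Q11 replicate 3 did Q11 replicate 2 hold fewer reads than that library, against 1929 to 2413 genes for each of the other 7 libraries. Reads were therefore taken to be shared by these 2 libraries, and values with the reads of replicate 3 taken out of replicate 2 (15336276 reads left) are called separated below. The members were read 43 to 22577 times per library, the fewest being Ccl24 in control replicate 2 and the most Ccl9 in Q11 replicate 2. Separated, that Q11 library had 10585 reads of Ccl9. All 10 macrophage markers examined, such as Csf1r and Cd68, were detected in every group, and their summed level was 8144 to 8240 TPM in Q11 libraries, 7790 to 8401 TPM in M2 libraries and 11807 to 12233 TPM in control libraries. In M2 against control 4 of these 10 fell, among them Lyz2 and Cd14, beside 5.75% of all genes tested. The listed markers of fibroblasts, of T and NK cells, of B cells and of epithelial cells summed to at most 1.73 TPM per list in any library. The endothelial list summed to 4.02 to 4.16 TPM in Q11 libraries, 4.02 to 4.58 TPM in M2 libraries and 4.59 to 5.72 TPM in control libraries, nearly all of it Vwf and Cdh5. The granulocyte and mast cell list summed to 17.0 to 19.8 TPM in Q11 libraries, 17.2 to 29.7 TPM in M2 libraries and 29.5 to 38.0 TPM in control libraries, nearly all of it S100a8, with Cpa3 and Mpo at or near 0. The part of these marker levels in the chemokine results was not tested.

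**Figure D1:**
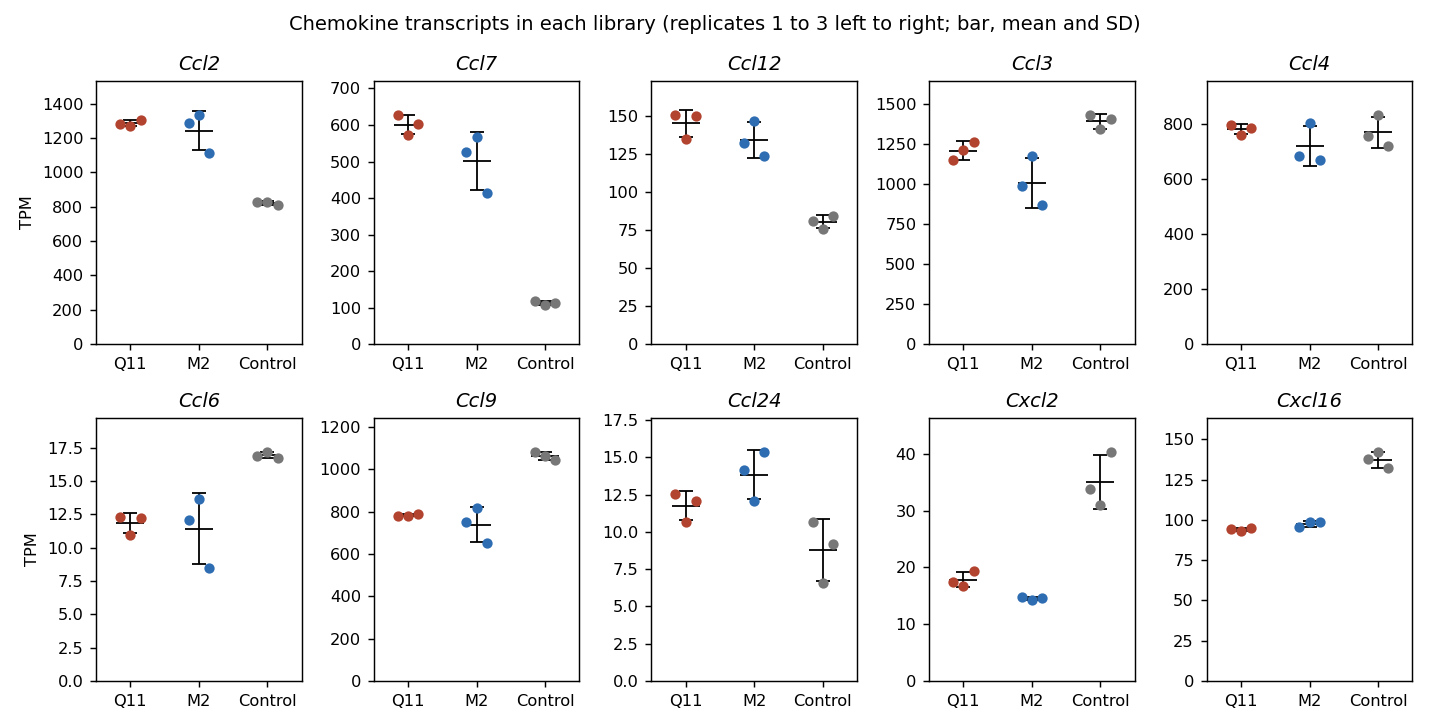
Level of each of the 10 chemokine genes in TPM (vertical axes, starting at 0) in the 3 Q11, 3 M2 and 3 control libraries, as points, with bars for the mean and SD. Ccl7 averaged 600.7 and 501 TPM in Q11 and M2 libraries and 113 TPM in control libraries, while Cxcl2 averaged 17.8 and 14.5 TPM against 35.0 TPM in control libraries.

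Between M2 and control cells the chemokine genes split by direction. Ccl2, Ccl7, Ccl12 and Ccl24 rose and Ccl3, Ccl6, Ccl9, Cxcl2 and Cxcl16 fell (limma, adjusted p under 0.05), and Ccl4 did not pass. In bulk RNA, a change per cell cannot be told apart from a change in the share of cells that make a transcript. The calls cover 9 of 10 members, in a comparison in which 12.6% of all 14207 genes tested passed, 6.88% higher and 5.75% lower. The members were chosen with earlier results of these data known, so these shares are no test of the list. The M2 and control libraries did not overlap in 9 of 10 members, as in 28.4% of all genes. All 10 members passed the filter on low levels (at least 1 TPM in at least 3 libraries). Their median change was -0.29 on the log2(TPM + 1) scale, and that of all genes was -0.00. The main fit takes 1 estimate of the spread from all libraries, among them the Q11 libraries that share reads. In the separated fit 3 members rose and 4 fell, the calls for Ccl6 and Ccl24 being lost, and 9.34% of all genes passed.

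Ccl2, Ccl7 and Ccl12 are the monocyte chemoattractants among the members and act mainly through the receptor CCR2. In GENCODE M21 (build GRCm38) they lie within 67830 bases on the forward strand of chromosome 11, with Ccl11, which was at most 0.365 TPM in any library, between Ccl7 and Ccl12. Ccl2 (ENSMUSG00000035385) is at 82035571 to 82037453, Ccl7 (ENSMUSG00000035373) at 82045712 to 82047525 and Ccl12 (ENSMUSG00000035352) at 82101845 to 82103400. Their coding sequences are 63.6% identical between Ccl2 and Ccl7, 62.2% between Ccl2 and Ccl12 and 66.7% between Ccl7 and Ccl12 over the aligned bases. The stretch of 90 aligned coding bases in which the 3 genes are most alike is shown, since genes of similar sequence may exchange reads. Whether reads were exchanged was not tested. It is taken from the GENCODE M21 transcripts, 5′ to 3′ on the coding strand, and capitals mark the 55 bases that are identical in all 3.
Ccl2: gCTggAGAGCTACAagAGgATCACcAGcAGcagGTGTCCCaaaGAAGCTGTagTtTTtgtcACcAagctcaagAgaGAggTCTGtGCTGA
Ccl7: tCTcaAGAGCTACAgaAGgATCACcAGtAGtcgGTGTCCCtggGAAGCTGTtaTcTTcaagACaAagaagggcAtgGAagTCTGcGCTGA
Ccl12: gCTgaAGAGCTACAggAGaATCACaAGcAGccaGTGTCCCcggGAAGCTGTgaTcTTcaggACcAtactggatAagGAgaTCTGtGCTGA
Identical bases come in short blocks in this stretch. The longest run shared by whole transcripts was 23 bases between Ccl2 and Ccl7, 17 between Ccl2 and Ccl12 and 11 between Ccl7 and Ccl12. Within the coding sequences the longest run of Ccl2 and Ccl7 was 11 bases. No run of 50 bases was shared by any pair (0 shared), but neither the read length nor the treatment of reads with several matches is stated in the sources used here.

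Ccl7, which draws monocytes through CCR2 and other CC receptors, changed more than any other member on the log2 scale. It was at 626, 573 and 602 TPM in the Q11 libraries, 525, 566 and 413 TPM in the M2 libraries and 119, 109 and 113 TPM in the control libraries. Every cytokine-treated library lay far above every control library, and M2 replicate 3 was the lowest of the treated ones. The separated level of Q11 replicate 2 was 543 TPM. Ccl7 rose 4.42-fold in M2 cells, by 2.12 in log2(TPM + 1) with a 95% interval of 1.89 to 2.35 (limma adjusted p = 5.54e-06). Folds here are ratios of mean TPM. The call held in all 21 alternative analyses.

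Ccl2, the principal monocyte chemoattractant, had 1284, 1269.7 and 1306 TPM in the Q11 libraries, 1287, 1332 and 1113 TPM in the M2 libraries and 826, 829 and 812 TPM in the control libraries. The control libraries were close to each other and lay below every treated library. Separated, Q11 replicate 2 had 1234 TPM. Ccl2 rose 1.51-fold in M2 cells, by 0.59 in log2 (0.46 to 0.72, adjusted p = 0.00029). Ccl12, a mouse CCR2 ligand, had 150.3, 135 and 150.2 TPM in the Q11 libraries, 132, 147 and 123 TPM in the M2 libraries and 81.0, 75.8 and 84.3 TPM in the control libraries. Again treated and control libraries did not overlap, and the separated Q11 replicate 2 was at 118 TPM. The rise of Ccl12 in M2 cells was 1.67-fold, or 0.73 on the log2 scale (0.57 to 0.89, adjusted p = 2.67e-04).

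Ccl7 moved further than its neighbour. There were 0.488, 0.452 and 0.461 Ccl7 transcripts for each Ccl2 transcript in the Q11 libraries, 0.408, 0.425 and 0.371 in M2 libraries and 0.144, 0.131 and 0.139 in control libraries. These TPM ratios, with unseparated reads, did not overlap between any pair of groups. The change in Ccl7 exceeded that in Ccl2 by 1.53 on the log2 scale in M2 against control (two-sided exact permutation test, p = 0.1, the smallest that 3 against 3 libraries allow, and 0.2 adjusted over 6 such tests). For Ccl12 over Ccl2 the ratio was 0.117, 0.106 and 0.115 in Q11 libraries, 0.102, 0.110 and 0.111 in M2 libraries and 0.0981, 0.0914 and 0.104 in control libraries. The M2 and control ratios of Ccl12 to Ccl2 overlapped, and their difference of 0.14 on the log2 scale had an exact permutation p of 0.2 (0.24 adjusted).

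**Figure D2:**
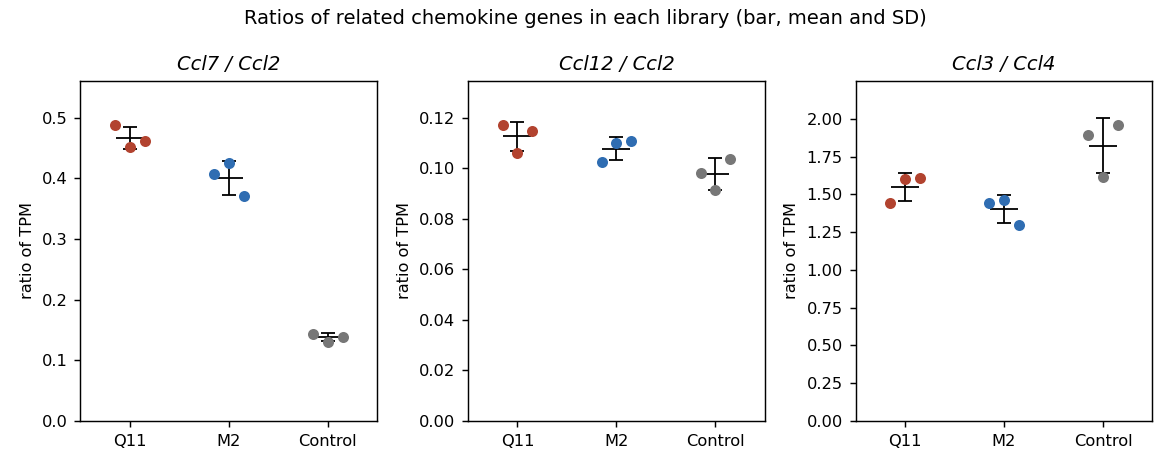
Ratios of the TPM of related chemokine genes in each library (vertical axes, starting at 0), with bars for the mean and SD, in Q11, M2 and control cells. The Ccl7 to Ccl2 ratio averaged 0.467 and 0.401 in Q11 and M2 libraries and 0.138 in control libraries, and the Ccl3 to Ccl4 ratio averaged 1.55, 1.40 and 1.82.

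Ccl3 and Ccl4, the macrophage inflammatory proteins that attract lymphocytes and other leukocytes, lie in a second stretch of chromosome 11. Ccl9, Ccl6, Ccl3 and Ccl4 span 91765 bases there. Ccl3 (ENSMUSG00000000982) is at 83647844 to 83649355 on the reverse strand and Ccl4 (ENSMUSG00000018930) at 83662584 to 83664683 on the forward strand, and their coding sequences are 67.0% identical.

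Ccl3 had 1149, 1217 and 1264 TPM in the Q11 libraries, 987, 1175 and 868 TPM in the M2 libraries and 1431, 1343 and 1411 TPM in the control libraries. All treated libraries lay below all control libraries, with the widest spread in M2 cells and M2 replicate 3 lowest. Ccl3 fell in M2 cells to 0.724 of its control mean, by 0.48 in log2 (-0.48, -0.69 to -0.27, adjusted p = 0.0117). Ccl4 had 796, 760.3 and 787 TPM in the Q11 libraries, 683, 803 and 670.0 TPM in the M2 libraries and 756, 831 and 721 TPM in the control libraries. All 3 groups overlapped in Ccl4, and its M2 against control difference was -0.10 (-0.26 to 0.06, adjusted p = 0.432). The ratio of Ccl3 to Ccl4 was 1.44, 1.60 and 1.61 in Q11 libraries, 1.44, 1.46 and 1.295 in M2 libraries and 1.89, 1.62 and 1.96 in control libraries. It was lower in each M2 library than in each control library, by 0.38 on the log2 scale, with the smallest exact permutation p that the design allows (0.1, 0.2 adjusted).

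Ccl6 and Ccl9 belong to a rodent branch of CC chemokines that bind CCR1. Ccl9 (ENSMUSG00000019122) is at 83572919 to 83578636 and Ccl6 (ENSMUSG00000018927) at 83587882 to 83593087 on the reverse strand of chromosome 11, with 68.1% of aligned coding bases identical and a longest shared run of 25 bases. Their levels were far apart. Ccl9 had 779.5, 780.2 and 788 TPM in the Q11 libraries, 749, 816 and 651 TPM in the M2 libraries and 1082, 1063 and 1045 TPM in the control libraries. No treated library reached the lowest control library, and Ccl9 fell in M2 cells by 0.53 on the log2 scale (-0.53, -0.68 to -0.38, adjusted p = 0.00131), to 0.695 of its control mean.

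Ccl6 had 12.3, 10.96 and 12.3 TPM in the Q11 libraries, 12.1, 13.7 and 8.51 TPM in the M2 libraries and 16.9, 17.2 and 16.8 TPM in the control libraries. Groups did not overlap against control, and the M2 libraries differed among themselves by more than the control libraries did. The M2 against control difference was -0.55 (-0.87 to -0.24, adjusted p = 0.0321). This call was lost in 11 of 21 alternatives, among them the separated fit (adjusted p = 0.0553), the fits without control replicate 1 (0.0832), control replicate 2 (0.0820), control replicate 3 (0.0806), M2 replicate 1 (0.0574) or Q11 replicate 3 (0.0515), and the fit with a replicate block (0.0543).

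Ccl24, known as eotaxin-2, attracts eosinophils through CCR3 and is a marker of IL-4-activated macrophages. It lies on chromosome 5 at 135569937 to 135573049 on the reverse strand (ENSMUSG00000004814). Ccl24 had 12.6, 10.6 and 12.1 TPM in the Q11 libraries, 14.1, 12.0 and 15.3 TPM in the M2 libraries and 10.7, 6.56 and 9.17 TPM in the control libraries, on 43 to 131 reads. The 131 reads were in Q11 replicate 2, which had 53 when separated. The M2 libraries lay above the control libraries, and control replicate 2 stood below the others. Ccl24 rose in M2 cells 1.57-fold, by 0.62 on the log2 scale (0.26 to 0.97, adjusted p = 0.0333). The call was lost in 10 of 21 alternatives, including the separated fit (adjusted p = 0.0577) and the fits without control replicate 2 (0.0564), control replicate 3 (0.0673), M2 replicate 1 (0.0890), M2 replicate 3 (0.0996) or Q11 replicate 3 (0.0537).

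Cxcl2 attracts neutrophils through CXCR2 and is a known target of NF-kB downstream of Toll-like receptors. It lies on chromosome 5 at 90903871 to 90905938 on the forward strand (ENSMUSG00000058427). Cxcl2 had 17.4, 16.7 and 19.4 TPM in the Q11 libraries, 14.7, 14.3 and 14.6 TPM in the M2 libraries and 33.8, 31.0 and 40.3 TPM in the control libraries. The control libraries were the highest and also the most spread, and no treated library came near them. Separated, Q11 replicate 2 was at 13.9 TPM. Cxcl2 fell in M2 cells to 0.414 of its control mean, by 1.21 on the log2 scale (-1.21, -1.41 to -1.001, adjusted p = 7.22e-05).

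Cxcl16 is made as a membrane protein with a chemokine domain, takes up oxidised lipoproteins and, once shed by ADAM10 or ADAM17, attracts T cells that carry CXCR6. It lies on chromosome 11 at 70453983 to 70459984 on the reverse strand (ENSMUSG00000018920). Cxcl16 had 94.1, 93.0 and 95.1 TPM in the Q11 libraries, 95.3, 98.7 and 98.5 TPM in the M2 libraries and 138, 142 and 132 TPM in the control libraries. The 6 treated libraries fell within a narrow band below the control libraries. Cxcl16 fell in M2 cells by 0.49 on the log2 scale (-0.49, -0.56 to -0.42, adjusted p = 3.25e-05), to 0.710 of its control mean. It shares 552 exonic bases with Zmynd15 on the opposite strand, which reached 9.59 TPM at most, and the sources used here do not say whether the counting used strand.

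**Figure D3:**
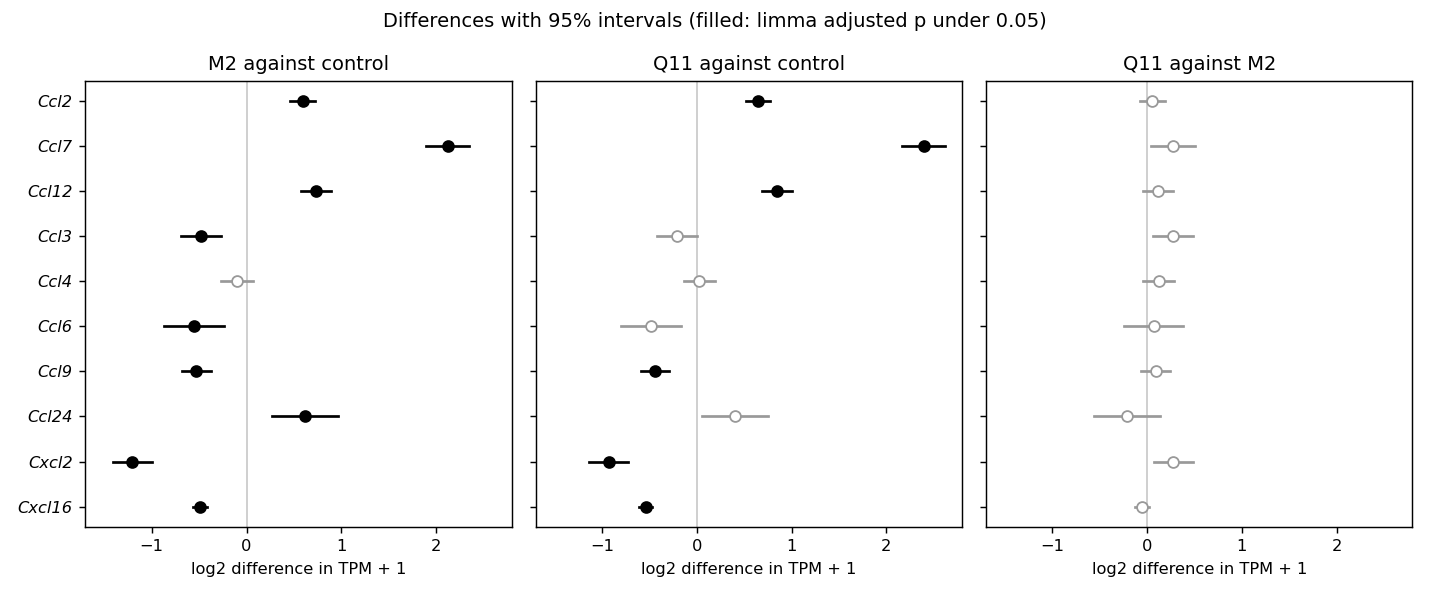
Differences of the 10 chemokine genes in log2(TPM + 1) (horizontal axis) for M2 against control, Q11 against control and Q11 against M2, with 95% intervals, filled where the limma adjusted p was under 0.05. Ccl7 stands furthest right at 2.12 (M2) and 2.39 (Q11) against control, Cxcl2 furthest left at -1.21 (M2) and -0.93 (Q11), and no point is filled in Q11 against M2.

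The RefSeq table held promoters for 5 of the 10 members (Ccl3, Ccl6, Ccl9, Ccl12 and Cxcl2), and the 250 bases before each start were searched on both strands. The NF-kB motif (GGG and TTTCC with any 2 bases between them) was found in 2 of 5, Cxcl2 and Ccl9, and in 1.41% of 32851 mouse promoters of the same length. The motif of STAT6, the factor activated by IL-4 and IL-13 (TTC and GAA with any 4 bases between them), was found in 0 of 5 and in 5.85% of all promoters. The AP-1 motif TGANTCA occurred in Ccl9 (6.75% of all promoters), and TATAAA in Ccl9 and Ccl12 (12.4% of all promoters), at -31 in Ccl12. The stretch from -125 to -26 before the RefSeq start (GRCm38.p6), 5′ to 3′ on the strand of the gene, is shown for the 3 promoters with a match, and capitals mark matches. Apart from TATAAA in Ccl9, described below, and AP-1, which reads alike on both strands, no matches overlapped. Ccl12 is read from chr11:82101720-82101819 on the forward strand, Ccl9 from chr11:83578662-83578761 on the reverse strand and Cxcl2 from chr5:90903774-90903873 on the forward strand.
Ccl12: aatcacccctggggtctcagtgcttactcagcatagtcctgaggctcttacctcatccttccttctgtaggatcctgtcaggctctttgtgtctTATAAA
Ccl9: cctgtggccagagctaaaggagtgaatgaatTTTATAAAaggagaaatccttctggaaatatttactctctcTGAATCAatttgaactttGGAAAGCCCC
Cxcl2: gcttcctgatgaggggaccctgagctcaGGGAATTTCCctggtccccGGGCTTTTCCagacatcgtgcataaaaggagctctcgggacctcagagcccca
Cxcl2 holds a pair of NF-kB matches on its forward strand, at -97 and -78 from the RefSeq start. For Cxcl2 the RefSeq and GENCODE starts differ. The bases searched end at 90903898, whereas GENCODE M21 begins the gene at 90903871, so the last of them lie inside the GENCODE gene. Ccl9 holds a single match on the other strand at -35, and Ccl3 and Ccl6, which also fell in M2 cells, hold none in the 250 bases searched. In the capitals of Ccl9, TTTATAAA joins a TATAAA with the same motif on the opposite strand. The letters describe these windows and were not measured for binding here.

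Taken by level, the same few genes made up most of the chemokine transcripts in every group. Ccl2, Ccl3, Ccl9 and Ccl4 were the 4 highest members throughout, and Ccl6, Ccl24 and Cxcl2 were the 3 lowest. In Q11 libraries the order was Ccl2, Ccl3, Ccl9, Ccl4, Ccl7, Ccl12, Cxcl16, Cxcl2, Ccl6 and Ccl24, in which the ranges of Ccl9 and Ccl4 overlapped and those of Ccl6 and Ccl24. M2 libraries kept that order except that Ccl24 stood before Ccl6, and their ranges overlapped between Ccl2 and Ccl3, between Ccl9 and Ccl4, and among the lowest members. Control libraries began with Ccl3, then Ccl9, Ccl2 and Ccl4, of which Ccl2 and Ccl4 overlapped, and Cxcl16 stood above Ccl7 and Ccl12 there.

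The summed level of the 10 members was 4922, 4867 and 5037 TPM in the Q11 libraries, 4499, 4977 and 3975 TPM in the M2 libraries and 4494, 4448 and 4385 TPM in the control libraries. The sums of M2 and control libraries overlapped, with a ratio of means of 1.01. Within the sum, Ccl2, Ccl7 and Ccl12 together made up 41.9%, 40.6% and 40.9% in the Q11 libraries, 43.2%, 41.1% and 41.5% in M2 libraries and 22.8%, 22.8% and 23.0% in control libraries. Ccl9 made up 15.8% on average in Q11 libraries and 16.5% in M2 libraries, against 23.9% in control libraries, and Ccl3 made up 24.5% and 22.5% against 31.4%. Shares of a sum are bound to each other, since a gain in one lowers the rest.

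**Figure D4:**
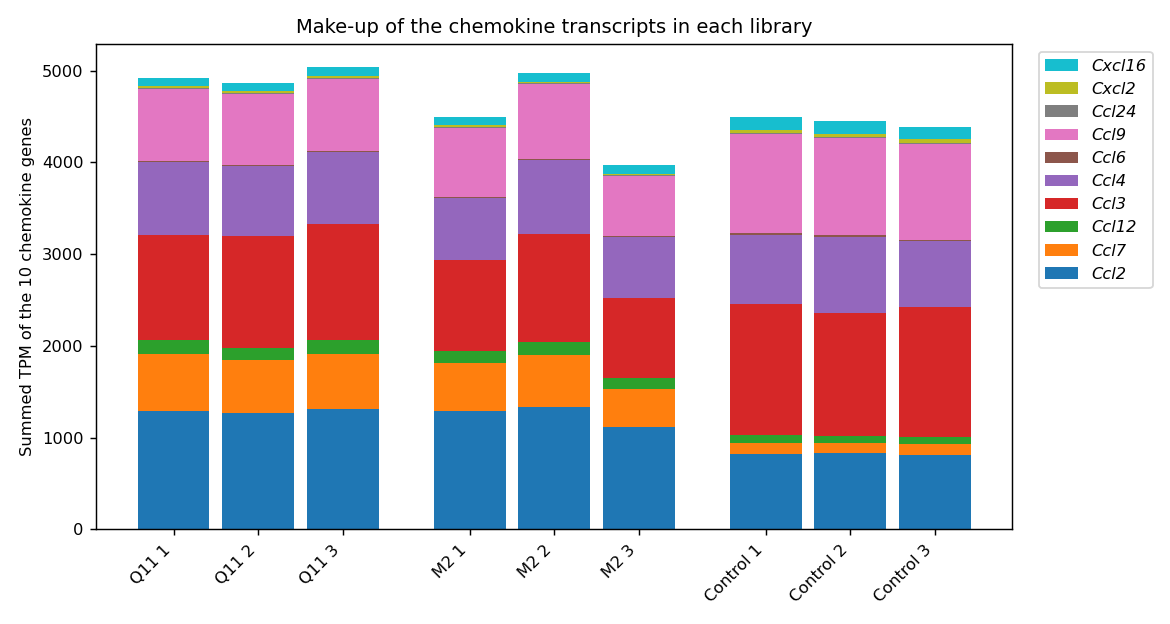
Summed TPM of the 10 chemokine genes in each of the 9 libraries (vertical axis, starting at 0), stacked by gene. The bars reach 4867 to 5037 TPM in Q11 libraries, 3975 to 4977 TPM in M2 libraries and 4385 to 4494 TPM in control libraries, and the lowest 3 blocks, Ccl2, Ccl7 and Ccl12, take 41.1% and 41.9% of the Q11 and M2 sums on average and 22.9% of the control sum.

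What Q11 added to the cytokines was read from Q11 against M2 cells, and no member passed the test there. Ccl7 averaged 600.7 ± 26.5 TPM in Q11 libraries and 501 ± 79.4 TPM in M2 libraries (SD, n = 3 libraries each here and below, Q11 replicates 2 and 3 sharing reads), Ccl3 1210.3 ± 57.7 and 1009.7 ± 155 TPM, and Cxcl2 17.8 ± 1.36 and 14.5 ± 0.237 TPM. By limma 0 of 10 members passed, as did 0% of all genes (percent called 0), and the smallest adjusted p of a member was 0.357, for Cxcl2. At an unadjusted p under 0.05 there were 3 of 10 members, against 11.4% of all genes, and in the separated fit 2 of 10, against 8.11%. Limma-voom on the recovered reads called 0 members and 2 genes in all (0.0143%). Q11 and M2 libraries did not overlap in 3 of 10 members (Ccl7, Cxcl2 and Cxcl16), as in 17.6% of all genes.

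The 3 members under an unadjusted 0.05 were all higher in Q11 libraries, as were 6.05% of all genes. The differences in log2(TPM + 1) were 0.28 for Cxcl2 (0.07 to 0.48, limma adjusted p = 0.357), 0.27 for Ccl3 (0.06 to 0.48, adjusted p = 0.368) and 0.27 for Ccl7 (0.05 to 0.50, adjusted p = 0.379). These differences rested in part on single libraries. Separated, Q11 replicate 2 had 543 TPM of Ccl7, inside the M2 range, and 13.9 TPM of Cxcl2, below every M2 library, and the Cxcl2 difference was 0.19. M2 replicate 3 was the lowest M2 library in 7 of 10 members and Q11 replicate 2 the lowest Q11 library in 8 of 10. Without M2 replicate 3 the difference was 0.14 for Ccl7 and 0.17 for Ccl3, and it was 0.28 for Cxcl2.

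The remaining members had 95% intervals of Q11 against M2 that included 0. Ccl2 averaged 1286.7 ± 18.4 TPM in Q11 libraries and 1243.8 ± 116 TPM in M2 libraries, a difference of 0.05 (-0.08 to 0.18). Ccl12 averaged 145 ± 8.93 and 134 ± 11.8 TPM (0.12, -0.04 to 0.27), Ccl4 781 ± 18.6 and 719 ± 73.1 TPM (0.12, -0.04 to 0.29), and Ccl9 783 ± 4.85 and 739 ± 82.9 TPM (0.09, -0.06 to 0.24). Ccl6 averaged 11.8 ± 0.756 and 11.4 ± 2.65 TPM (0.07, -0.24 to 0.38). Ccl24 lay lower in Q11 libraries at 11.8 ± 0.994 against 13.8 ± 1.67 TPM (-0.22, -0.57 to 0.14), and Cxcl16 at 94.1 ± 1.07 against 97.5 ± 1.91 TPM (-0.05, -0.12 to 0.02). With separated reads the Q11 SDs were larger, at 37.1 TPM for Ccl2, 42.8 TPM for Ccl7, 18.5 TPM for Ccl12, 34.0 TPM for Ccl4, 1.57 TPM for Ccl6, 1.86 TPM for Ccl24 and 2.77 TPM for Cxcl2. Separated, the difference was 0.05 for Ccl12 and 0.01 for Ccl6. Without M2 replicate 3 it was 0.06 for Ccl12, 0.08 for Ccl4, 0.00 for Ccl9, -0.02 for Ccl2 and -0.14 for Ccl24, and without M2 replicate 2 it was 0.18 for Ccl12, 0.21 for Ccl4, 0.16 for Ccl9 and 0.10 for Ccl2. For Ccl6 it ranged over -0.11 (without M2 replicate 3) to 0.20 (without M2 replicate 2) with 1 library left out.

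The Ccl7 to Ccl2 ratio was higher in Q11 than in M2 libraries by 0.22 on the log2 scale, with the smallest exact permutation p possible (0.1, 0.2 adjusted). Ccl12 over Ccl2 differed by 0.06 (exact permutation p = 0.4) and Ccl3 over Ccl4 by 0.15 (exact permutation p = 0.2). These tests used unseparated levels and count Q11 replicates 2 and 3, which share reads, as independent libraries. Their p-values are therefore not those of 3 independent Q11 libraries. Separated, Q11 replicate 2 had 543 TPM of Ccl7 and 1234 TPM of Ccl2.

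Against control, cells given Q11 with the cytokines had the same 3 monocyte chemoattractants higher. This comparison shares its control libraries with M2 against control and its Q11 libraries with Q11 against M2, so the values are given side by side and not as separate support. The fit below used unseparated levels and counts Q11 replicates 2 and 3, which share reads, as independent libraries. Its intervals and p-values are therefore not those of 3 independent Q11 libraries. Ccl7 rose by 2.39 (2.17 to 2.62, limma adjusted p = 2.90e-06), Ccl12 by 0.84 (0.69 to 1.00, adjusted p = 1.26e-04) and Ccl2 by 0.65 (0.52 to 0.78, adjusted p = 1.88e-04). Cxcl2 fell by 0.93 (-0.93, -1.14 to -0.72, adjusted p = 3.28e-04), Cxcl16 by 0.54 (-0.54, -0.61 to -0.47, adjusted p = 1.79e-05) and Ccl9 by 0.44 (-0.44, -0.59 to -0.29, adjusted p = 0.00374).

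In all, 3 of 10 members rose and 3 fell in Q11 against control, in a comparison in which 10.7% of all genes passed, 5.19% higher and 5.53% lower. The separated fit gave the same numbers of members, with 7.98% of all genes. Groups did not overlap in 8 of 10 members, as in 32.1% of all genes. Ccl3 (-0.21, -0.42 to 0.01, adjusted p = 0.221), Ccl4 (0.02, -0.14 to 0.19, adjusted p = 0.887), Ccl6 (-0.49, -0.80 to -0.17, adjusted p = 0.058) and Ccl24 (0.40, 0.05 to 0.75, adjusted p = 0.15) did not pass. Limma-voom on the recovered reads, which called 15.1% of all genes, called Ccl3 (adjusted p = 0.0225) and Ccl6 (adjusted p = 0.00705) lower as well. For Ccl6, the fits without M2 replicate 2 (adjusted p = 0.0315) or M2 replicate 3 (0.00342) also passed.

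Of 31 other chemokine ligands, 17 were in the table and 5 passed the filter, and 0 of these 5 changed in M2 against control (limma, with 0 at an unadjusted p under 0.05 and 0 by limma-voom). Pf4, a platelet and macrophage CXC chemokine, was as abundant as several members, at 624 ± 21.1 TPM in Q11 libraries, 630.0 ± 11.5 TPM in M2 libraries and 625 ± 31.4 TPM in control libraries. Ccl5, which attracts T cells, averaged 5.91, 6.21 and 7.40 TPM in Q11, M2 and control libraries, and Ccl8, a monocyte and eosinophil attractant, 1.07, 0.529 and 1.05 TPM on at most 5 reads per library. Cxcl10, the interferon-induced ligand of CXCR3, was at 1.19, 2.15 and 2.13 TPM in Q11 libraries, 2.47, 2.18 and 2.69 TPM in M2 libraries and 4.58, 2.98 and 3.46 TPM in control libraries. All control libraries lay above all treated ones in Cxcl10, and it fell in Q11 against control (-0.73, -1.17 to -0.30, adjusted p = 0.0431) but not past the threshold in M2 against control (-0.43, -0.86 to 0.01, adjusted p = 0.2). The difference in Cxcl10 between Q11 and M2 libraries did not pass either (-0.31, -0.74 to 0.13, adjusted p = 0.57). The Q11 call for Cxcl10 was lost in the separated fit (adjusted p = 0.0564) and when any single library was left out (0.0526 without control replicate 2 to 0.132 without control replicate 1).

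The chemokines most often used as signs of IL-4 activation besides Ccl24 were barely read. Ccl17 had 4, 1 and 1 reads in Q11 libraries, 0, 1 and 0 reads in M2 libraries and 0, 1 and 1 reads in control libraries. Separated, Q11 replicate 2 had 0 reads of Ccl17. Ccl22 had 1, 0 and 0 reads in Q11 libraries, 1, 0 and 0 reads in M2 libraries and 1, 10 and 4 reads in control libraries. Both genes were below the filter and were not tested, and a library with 0 reads may still stand for up to 3. Cxcl1 and Cxcl3, which share CXCR2 with Cxcl2, had no row under those symbols in the deposited expression table, so no level can be given for them.

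Several receptors of the members were also near the floor of detection. Ccr1, Ccr3, Cxcr2, Cxcr6 and the scavenging receptor Ackr2 had at most 6 reads in any library and were below the filter. Of 24 receptors 18 were in the table and 6 were tested. In M2 against control 1 rose and 4 fell, beside 6.88% and 5.75% of all genes. Cxcr4, the receptor of CXCL12, had 50.7, 50.7 and 55.9 TPM in Q11 libraries, 48.2, 49.1 and 43.5 TPM in M2 libraries and 79.7, 92.9 and 79.5 TPM in control libraries, and no treated library reached the control range. It fell by 0.83 in M2 cells (-0.83, -0.99 to -0.66, adjusted p = 1.66e-04). Ccrl2, an atypical receptor, fell to 7.49 TPM in M2 libraries, against 12.4 TPM in control libraries (-0.66, adjusted p = 3.63e-04).

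Ccr2, the receptor of Ccl2, Ccl7 and Ccl12, averaged 4.63, 4.08 and 5.35 TPM in Q11, M2 and control libraries, and Cxcr3, the receptor of Cxcl10, 21.7, 21.3 and 27.6 TPM. Both fell in M2 cells, Ccr2 by 0.32 (-0.32, adjusted p = 0.0399) and Cxcr3 by 0.36 (-0.36, adjusted p = 0.0425), and neither call held in the separated fit (adjusted p = 0.0638 for Ccr2 and 0.0527 for Cxcr3). With 1 library left out, the Ccr2 call held only without Q11 replicate 1 (0.0473) and was lost at 0.0707 to 0.116 in the other 8 fits. The Cxcr3 call held only without M2 replicate 1 (0.0336) or Q11 replicate 1 (0.0315) and was lost at 0.0503 to 0.122 in the other 7. Ccr10, known from T cells that home to skin, averaged 10.6, 13.7 and 10.3 TPM and rose in M2 cells by 0.39 (adjusted p = 0.0141), though not by limma-voom (adjusted p = 0.0505), without control replicate 1 (0.0510) or without M2 replicate 1 (0.0511). In Q11 against control 0 receptors rose and 2 fell, Cxcr4 and Ccrl2, beside 5.19% and 5.53% of all genes. Limma called 0 of 6 receptors in Q11 against M2. There 1 receptor had an unadjusted p under 0.05, against 11.4% of all genes, and limma-voom called 0.

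**Figure D5:**
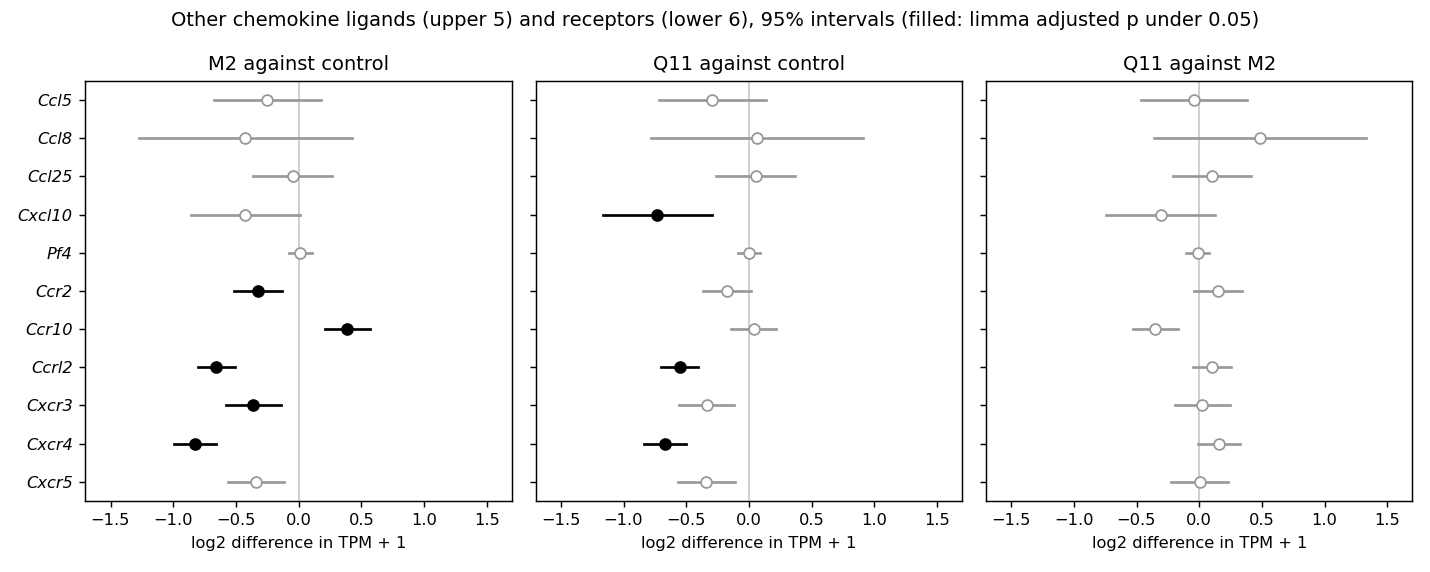
Differences in log2(TPM + 1) (horizontal axis) with 95% intervals for the 5 other chemokine ligands and 6 receptors tested, in M2 against control, Q11 against control and Q11 against M2, filled where the limma adjusted p was under 0.05. Cxcr4 lies at -0.83 (M2) and -0.67 (Q11) against control and Ccrl2 at -0.66 (M2) and -0.55 (Q11), while Pf4 lies at 0.01 in M2 against control.

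Among 14 genes listed for the shedding and trimming of chemokines, 10 were tested. In M2 against control 1 rose and 6 fell, beside 6.88% and 5.75% of all genes. Adam17, a sheddase of Cxcl16, had 124, 128 and 127 TPM in Q11 libraries, 119, 125 and 121 TPM in M2 libraries and 164, 169 and 161 TPM in control libraries. It fell with Cxcl16 in M2 cells, by 0.43 (-0.43, -0.50 to -0.37, adjusted p = 3.73e-05), whereas Adam10, the other sheddase, averaged 82.9, 76.7 and 80.6 TPM and did not pass (adjusted p = 0.456). Mmp9, a gelatinase that trims several chemokines, fell by 0.70 (-0.70, adjusted p = 0.00395), the dipeptidyl peptidase gene Ctsc by 0.45 (-0.45, adjusted p = 4.05e-05), and the cathepsin gene Ctsl rose by 0.39 (adjusted p = 4.84e-04).

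Downstream of the receptors, 30 genes of G protein and cell movement signalling were tested. In M2 against control 0 of these 30 rose and 6 fell, beside 6.88% and 5.75% of all genes. The largest falls were Rgs2 (-0.32, adjusted p = 0.0277), which limits G protein signals, the kinase gene Pik3cg (-0.30, adjusted p = 0.00467), the G protein subunit gene Gng2 (-0.28, adjusted p = 0.0122) and the GTPase gene Rap1b (-0.27, adjusted p = 0.0114). The Rgs2 call was lost without M2 replicate 1 (0.0878) or 3 (0.0822) and without control replicate 2 (0.0787) or 3 (0.0741). NF-kB and Toll-like receptor signalling drives Cxcl2, Ccl3 and other chemokines in macrophages. Of 27 tested genes of that signalling 2 rose and 9 fell, beside the same shares of all genes. Tlr2, a receptor for bacterial lipoproteins, fell by 1.06 (-1.06, adjusted p = 6.69e-07), Tnf, encoding the cytokine TNF, by 0.85 (-0.85, adjusted p = 3.14e-04), the NF-kB cofactor gene Nfkbiz by 0.83 (-0.83, adjusted p = 5.34e-04) and the inhibitor gene Nfkbie by 0.58 (-0.58, adjusted p = 1.03e-04). Nfkb1, an NF-kB subunit gene, went the other way, at 68.2 TPM on average in M2 libraries and 55.2 TPM in control libraries. Zfp36 did too, at 48.1 and 37.8 TPM. The part of these genes in the chemokine results was not tested. The median change was -0.05 over the receptor signalling genes and -0.08 over the NF-kB genes, beside -0.00 over all genes. Limma called 0 genes of either list in Q11 against M2, and 0 by limma-voom. At an unadjusted p under 0.05 there were 3 of each list, against 11.4% of all genes, and in the separated fit 1 of each, against 8.11%.

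Genes with a pattern over the 9 libraries most like each changed member were sought by the root mean square difference in log2(TPM + 1). Each gene was first centred on its mean. The search covered 9114 protein-coding genes that averaged 5 TPM or more, without clone-like symbols. The members themselves were left out of the ranking, so the nearest genes below are the nearest outside the 10 members. For Ccl7 the nearest gene was Mrc1, the mannose receptor (0.209), with means of 84.3, 87.3 and 19.6 TPM in Q11, M2 and control libraries, followed by Azin2 (0.291) and Rnf19b (0.347). For Cxcl2 the nearest were Hcar2, the receptor for niacin and beta-hydroxybutyrate (0.120), Cybb, the catalytic subunit of the phagocyte NADPH oxidase (0.132), and Klra2 (0.140). Cxcl16 lay closest to its neighbours in pattern, Hal at 0.0191 and Ifitm3 at 0.0258. Ccl2 was nearest to Plekha3 (0.0444), Tfrc (0.0517) and Igf1 (0.0578), and Ccl12 to Sdc4 (0.0791) and again Igf1 (0.0852). Ccl3 was nearest to Vma21 (0.0482) and Itgam (0.0517), Ccl9 to Pou2f2 (0.0486), Ccl6 to Sgk1 (0.0921) and Ccl24 to Cytip (0.126).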

How the data were processed

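Per the labels' protocols, poly-A RNA of the 9 J774A.1 libraries went through a NEBNext Ultra kit. Per the submitters' processing notes, HISAT2 2.0.5, StringTie 1.3.3b and build GRCm38 were used, without stated counting settings. The authors deposited TPM for 26157 genes, of which 25594 IDs were found in GENCODE M21. Reads were recovered as TPM times exon length, divided by the most common such value in the library, which was taken as a single read. With a tolerance of 0.1 read, 98.8% to 99.1% of values up to 20 reads were whole in each library. Limits from 0 reads are set at 3 reads and cover counting error only.

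The 14207 genes that reached 1 TPM in 3 or more of the 9 libraries were fitted as log2(TPM + 1) with limma 3.58.1 in R 4.3.3, with 1 mean per group and eBayes with trend. This scale understates changes of genes with low levels. All 9 libraries gave 1 estimate of the spread per gene, so the shared Q11 reads enter the intervals and p-values of every comparison. Two-sided p-values were Benjamini-Hochberg adjusted over the whole set of genes, and 0.05 was the threshold. Ratios of members were compared by exact permutation tests (scipy 1.17.1). The fit was also run on simulated reads of independent libraries, with the same dispersion for every gene. That simulation held no reads shared between libraries, so it cannot show how the shared Q11 reads act on the calls. Alternatives were another pseudocount (0.1), no filter or a filter of 5 TPM, quantile normalization, median-of-ratios scaling, no trend, a replicate block, separated reads, limma-voom, only the groups compared and leaving out each library. Voom and the removal of M2 replicate 3, each on separated reads, were added after seeing the data.

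The members and lists were chosen with earlier results of these data known. The genes named were all members, up to 4 called genes per list with the largest changes in M2 against control, a set list of receptors, sheddases and ligands, and the genes nearest in pattern. Pf4, Nfkb1 and Zfp36 were chosen after their values were seen. A gene of that set list is not reported here. Sequences are from GENCODE M21 transcripts and RefSeq.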

Additional observations from a re-analysis of the deposited data

How the results depend on the processing

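Member calls in M2 against control came to 7 to 9 over all alternatives and those in Q11 against control to 6 to 8, with 0 in every alternative of Q11 against M2. Among the values of single members, M2 against control had 0 reversed and 21 that lost the call (11 for Ccl6 and 10 for Ccl24), and Q11 against control had 10 that gained one (Ccl3 and Ccl6). Signs turned in Q11 against M2 without M2 replicate 3 for Ccl2 (-0.0249, within -0.0249 to 0.105 when 1 library was left out) and Ccl6 (-0.112, within -0.112 to 0.201). With separated reads and without that library they turned for Ccl2 (-0.0387), Ccl12 (-0.00404), Ccl6 (-0.173) and Ccl9 (-0.00272). Ccl4 turned in Q11 against control without control replicate 3 (-0.0213, within -0.0213 to 0.0810 when 1 library was left out). The ratio of summed levels in M2 against control turned to 0.999 with quantile normalization and ranged over 0.954 (without M2 replicate 2) to 1.07 with 1 library left out.

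Genes called in M2 against control numbered 1794 (1110 with only these groups, 861 with separated reads and without M2 replicate 3, and 1146 to 1656 with 1 library left out, 1146 being without control replicate 1 and 1178 without control replicate 3). In Q11 against control there were 1524 (771 to 1616 with 1 library left out, 771 without Q11 replicate 3 and 792 without Q11 replicate 2). In Q11 against M2 there were 0 (3 with no filter, 2 with no trend, 2 by limma-voom and 0 to 2 with 1 library left out). Receptors called in M2 against control numbered 3, in place of 5, with no filter, quantile normalization, separated reads, separated reads without M2 replicate 3 or only these groups, and 2 to 5 with 1 library left out. The 1 other ligand called in Q11 against control was Cxcl10. With a filter of 5 TPM it was not tested, its highest level being 4.58 TPM. Its call was lost (0 called) with no filter, the replicate block, separated reads, separated reads without M2 replicate 3 or only these groups. The call was also lost in each fit with 1 library left out (0 to 0). The cause was not tested.

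Replicate numbers did not pair the libraries: same-numbered libraries had correlations of -0.0309 to 0.0362 in their deviations from the group means, 0 of 9 over 0.1, and 1 of 9 libraries correlated best with its own number. With the replicate block 1335 genes passed in M2 against control, 1086 in Q11 against control and 0 in Q11 against M2, and 8, 6 and 0 members. The Ccl7 change exceeded the Ccl2 change by 1.53 with or without the block, and the block gave ratios of summed levels of 1.01, 1.11 and 1.11 in M2 against control, Q11 against control and Q11 against M2. Ccl24, Ccl6 and Ccl8 are limited by few reads.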
